A study of Mus musculus with 19 samples.

Results

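The genes described here are 9 regulators of apoptosis, taken by symbol from the 53379 gene rows of the count table: the Bcl2 family members Bcl2, Bcl2l1, Mcl1, Bcl2l11, Bid, Bak1 and Bok, and the caspases Casp8 and Casp9. Each of the 9 symbols matched 1 row. They were measured by polyA RNA-seq in 19 single mouse embryos, all of the B6D2F1 strain, all produced by in vitro fertilisation (IVF), grown in the embryo medium KSOM and collected 96 hours after insemination. The Alyref cross (Alyref+/- by Alyref+/-) gave 2 morulae labelled Alyref KO, 3 morulae and 3 blastocysts labelled WT or heterozygous, and the Gabpb1 cross (Gabpb1+/- by Gabpb1+/-) gave 3 morulae labelled Gabpb1 KO, 2 morulae and 3 blastocysts labelled WT or heterozygous. A wild-type (WT) cross gave 3 blastocysts. The embryos labelled WT or heterozygous are called non-KO here, because the labels do not separate the 2 genotypes. Alyref encodes an adaptor that hands spliced mRNA to the nuclear export machinery, and Gabpb1 encodes a subunit of the ETS-type transcription factor GABP.

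In the mitochondrial route to apoptosis, BH3-only proteins such as Bim (the product of Bcl2l11) and Bid bind the pro-survival proteins Mcl1, Bcl-xL (the product of Bcl2l1) and Bcl2, and free or activate effectors of the Bax and Bak type that permeabilise the outer mitochondrial membrane. Released cytochrome c then assembles the apoptosome, which activates the initiator caspase Casp9. Death receptors act through the initiator caspase Casp8, which can also cleave Bid and so join the mitochondrial route. Dying cells are a known feature of the inner cell mass of the mouse blastocyst, and loss of Mcl1 is known to be lethal around implantation.

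KO status was assigned by the submitters from missing reads over the deleted region in the same libraries, a region that counts per gene do not resolve. Over the whole gene, Alyref had 46.1 to 56.9 CPM (counts scaled to library size) in the 2 KO-labelled morulae and 164 to 281 CPM in their 3 non-KO sibling morulae. Gabpb1 had 73.8 to 250 CPM in the 3 Gabpb1-KO-labelled morulae and 83.3 to 95.1 CPM in the 2 non-KO morulae, so its gene-level count was not lower under that label. Libraries held 7486125 to 31536282 gene counts (median 13633603), 23167 to 28300 genes with a count, 0.501 to 1.95% ERCC spike-in counts and 2.51 to 5.74% mitochondrial counts. Summed CPM of 9 trophectoderm markers was 372 to 4171 in the morulae and 4041 to 7048 in the blastocysts. Krt8 and Krt18 made up most of this sum in the mean of every group. The 8 cumulus and granulosa cell markers summed to at most 0.911 CPM, with Fshr at 0 counts in all 19 embryos. The 4 blood markers summed to 33.3 and 98.2 CPM in the 2 Gabpb1 cross non-KO morulae, to 215 CPM in the second Gabpb1-KO-labelled morula, and to at most 9.19 CPM elsewhere. The crosses had different parents and the labels name no IVF session, so cross and session cannot be told apart.

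Promoters are shown for Mcl1 and Bcl2l11, because GABP binds ETS motifs and these are 2 members that carry the motif upstream of a gene start. The motif searched was CCGGAAG on either strand (CTTCCGG in the other orientation), in RefSeq windows of 300 bases around gene starts on GRCm38.p6. It occurred in 2910 of 32851 windows (8.86%), and in 3 of the 12 windows of the 9 members: 1 each for Mcl1, Bcl2l11 and Bcl2l1. The match began 63 bases before the start in Mcl1 and 105 bases before it, as the reverse complement, in Bcl2l11, and lay 34 bases after the start in 1 of the 3 Bcl2l1 windows. The 250 bases upstream of the RefSeq start are printed on the plus strand, 5′ to 3′, with the match in capitals, for chr3:95658471-95658720 (Mcl1) and chr2:128125788-128126037 (Bcl2l11).
Mcl1: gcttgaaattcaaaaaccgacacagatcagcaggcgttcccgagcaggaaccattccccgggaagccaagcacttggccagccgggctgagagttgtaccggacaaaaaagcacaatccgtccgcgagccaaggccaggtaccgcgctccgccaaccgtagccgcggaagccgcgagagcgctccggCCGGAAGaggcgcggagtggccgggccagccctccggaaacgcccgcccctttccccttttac
Bcl2l11: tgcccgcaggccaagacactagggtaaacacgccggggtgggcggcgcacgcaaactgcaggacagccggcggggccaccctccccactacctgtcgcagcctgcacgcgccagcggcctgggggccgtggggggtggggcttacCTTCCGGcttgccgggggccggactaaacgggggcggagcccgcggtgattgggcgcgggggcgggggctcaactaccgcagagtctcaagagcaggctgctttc
A match is only a run of letters, and binding was not measured.

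Levels per length are given as FPKM (CPM divided by the exon length in kilobases), computed from the counts and the deposited exon length. Over the 19 embryos Bok (median 37.9 FPKM, range 16.9 to 74.9) and Mcl1 (37.2, 25.8 to 71.4) stood far above the other 7 genes. Bcl2l1 (4.06, 1.24 to 7.08) and Bid (3.97, 1.44 to 8.61) followed, then Bcl2l11 (1.43, 0.235 to 9.70) and Casp9 (1.38, 0.0908 to 2.23). Bak1 (0.139), Casp8 (0.0561) and Bcl2 (0.0071) were close to or at 0 counts. Within this order, Bok and Mcl1, Bcl2l1 and Bid, and Bcl2l11 and Casp9 were neighbours whose ranks changed between embryos: the gene with the higher median was above the other in 9, 11 and 9 of 19 embryos. Mcl1 was above Bcl2l1 in all 19 embryos and Casp9 above Bak1 in 18. The filter for testing, an FPKM of at least 1 in at least 2 embryos, was passed by 6 members (Bcl2l1, Mcl1, Bcl2l11, Bok, Bid and Casp9) and not by Bcl2, Bak1 and Casp8.

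**Figure D1:**
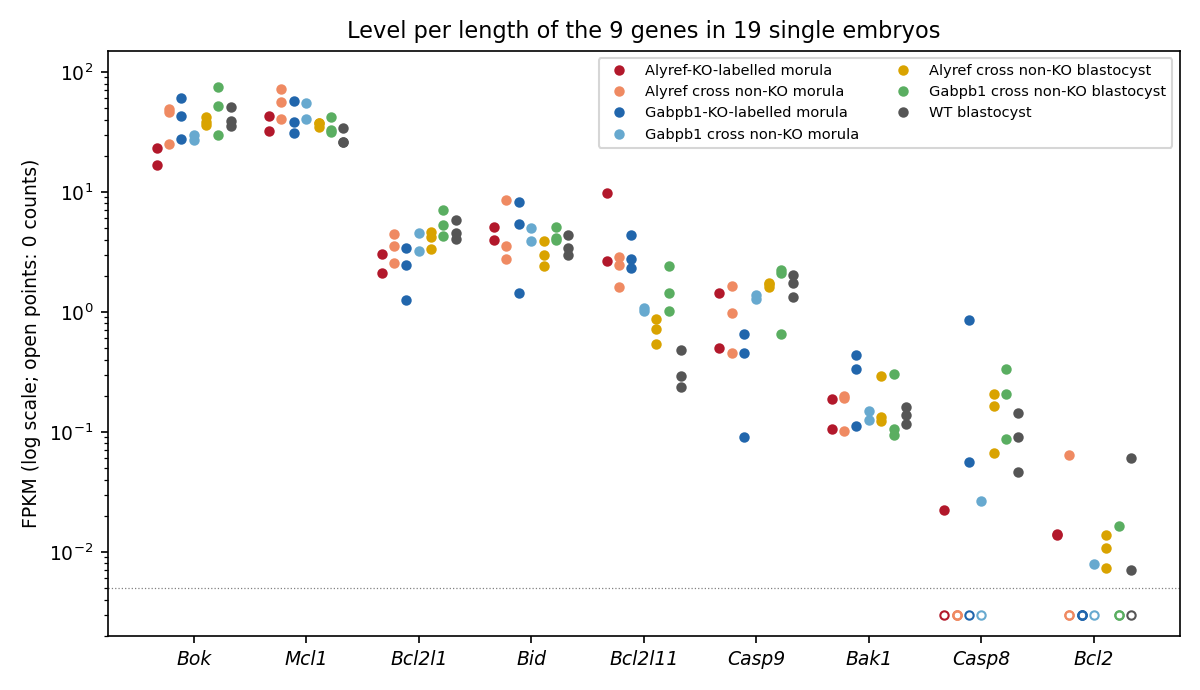
FPKM of the 9 genes (y axis, log scale) in each of the 19 embryos, coloured by group; open points below the dotted line are embryos with 0 counts. Bok and Mcl1 lie between 16.9 and 74.9 FPKM in every embryo, and Bak1, Casp8 and Bcl2 stay below 1 FPKM.

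Among the pro-survival genes, Mcl1 (chr3:95658788-95663176, plus strand, ENSMUSG00000038612.16) supplied most of the transcript. Its share of the summed FPKM of Mcl1, Bcl2l1 and Bcl2 was 81.9 to 96.6% over the embryos, from 85.3% ± 3.74 (SD, n = 3) in WT blastocysts to 94.8% ± 1.14 (n = 3) in Gabpb1-KO-labelled morulae. Mcl1 measured 110 and 148 CPM in the Alyref-KO-labelled morulae and 190, 244 and 139 CPM in their non-KO sibling morulae. In the Gabpb1 cross it measured 131, 106 and 195 CPM in KO-labelled and 139 and 189 CPM in non-KO morulae. In blastocysts it measured 119, 127 and 127 CPM (Alyref cross), 107, 112 and 144 CPM (Gabpb1 cross) and 116, 89.5 and 88.2 CPM (WT). The non-KO morulae of both crosses had the highest group means and WT blastocysts the lowest, and each group overlapped its neighbours in the order of means.

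Bcl2l1 (chr2:152780668-152831728, minus strand, ENSMUSG00000007659.18), which encodes the pro-survival Bcl-xL, had its lowest values in the KO-labelled groups. Its group means ranged from 10.8 CPM ± 4.94 (SD, n = 3) in Gabpb1-KO-labelled and 11.9 ± 3.03 (n = 2) in Alyref-KO-labelled morulae to 22.0 ± 4.09 (n = 3) in WT and 25.4 ± 6.54 (n = 3) in Gabpb1 cross blastocysts, with 16.0 to 18.6 in the other 3 groups. Neighbouring groups in that order overlapped, and no comparison of Bcl2l1 reached an unadjusted p under 0.05. Bcl2 itself (chr1:106538178-106714274, minus strand, ENSMUSG00000057329.7) had a count in 10 of 19 embryos, with 11 counts in 1 Alyref cross non-KO morula, 8 in 1 WT blastocyst and 1 or 2 in the other 8. The 3 Gabpb1-KO-labelled morulae had 0 counts, which allows up to 0.24, 0.27 and 0.20 CPM (3 counts per embryo, counting error only). At this depth no group difference in Bcl2 was detected in the edgeR fit without a filter, and equal levels were not shown either.

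The BH3-only gene Bcl2l11 (chr2:128126038-128162547, plus strand, ENSMUSG00000027381.16), whose product Bim binds all the pro-survival proteins, was the tested member that spread most between groups. It measured 77.9 and 21.4 CPM in the Alyref-KO-labelled morulae against 12.9, 23.0 and 19.8 CPM in their non-KO siblings. In the Gabpb1 cross it measured 22.2, 34.8 and 18.5 CPM in the KO-labelled morulae against 8.14 and 8.68 CPM in the non-KO morulae. In blastocysts it measured 4.30, 5.74 and 7.04 CPM in the Alyref cross, 11.5, 19.5 and 8.23 CPM in the Gabpb1 cross, and 3.88, 1.89 and 2.36 CPM in WT. The first Alyref-KO-labelled embryo, the highest of all 19, stood well above the other KO-labelled embryo of that cross, which lay inside the range of the non-KO morulae. In the order of group means, the first 5 groups (Alyref KO-labelled, Gabpb1 KO-labelled, Alyref cross non-KO morulae, Gabpb1 cross blastocysts and Gabpb1 cross non-KO morulae) each overlapped the next. Alyref cross blastocysts lay below the Gabpb1 cross non-KO morulae without overlap, and WT blastocysts lay below them in turn. Set against Mcl1 in the same embryo, Bcl2l11 was 6.16 and 30.2% of the Mcl1 FPKM in the 2 Alyref-KO-labelled morulae and 2.90 to 6.06% in their non-KO siblings. It was 4.04 to 13.96% in Gabpb1-KO-labelled morulae, against 1.95 and 2.49% in their siblings. In blastocysts it was 1.54 to 2.36% (Alyref cross), 2.42 to 7.40% (Gabpb1 cross) and 0.897 to 1.43% (WT), so the Gabpb1-KO-labelled range overlaps those of the Alyref cross non-KO morulae and the Gabpb1 cross blastocysts.

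Bid (chr6:120891930-120916853, minus strand, ENSMUSG00000004446.12), a BH3-only protein cut by Casp8, had group means of 11.03 to 17.8 CPM, with every group overlapping its neighbours. Embryos within 2 morula groups covered a wider range than these means: 30.6, 12.5 and 9.74 CPM in Alyref cross non-KO morulae, and 5.11, 19.1 and 29.1 CPM in Gabpb1-KO-labelled morulae. The 9 blastocysts lay between 8.63 and 18.0 CPM. Bid shares 628 exon bases with Bcl2l13 on the opposite strand (174 to 826 counts per embryo), and the strand setting of the counting is not given in the sources used here, so reads from this overlap cannot be assigned to 1 gene with certainty.

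Of the effectors, Bok (chr1:93685660-93695764, plus strand, ENSMUSG00000026278.14), a relative of Bax and Bak, was abundant and Bak1 was near the floor. Bok measured 31.1 and 43.1 CPM in the Alyref-KO-labelled morulae, the 2 lowest embryos of the 19, against 89.6, 85.0 and 46.3 CPM in their non-KO sibling morulae. It measured 50.9, 79.3 and 112 CPM in Gabpb1-KO-labelled morulae against 54.5 and 50.2 CPM in the non-KO morulae. Blastocysts measured 69.8, 77.6 and 66.97 CPM (Alyref cross), 95.8, 54.5 and 138 CPM (Gabpb1 cross) and 71.2, 65.0 and 93.8 CPM (WT). In the order of means, the Gabpb1 cross non-KO morulae lay below the Alyref cross blastocysts and above the Alyref-KO-labelled morulae without overlap, and the other neighbours overlapped. Per length, Mcl1 exceeded Bok in 10 of 19 embryos: in all 5 Alyref cross morulae, in both Gabpb1 cross non-KO morulae and in 1 of 3 Gabpb1-KO-labelled morulae, but in only 2 of the 6 non-KO blastocysts of the crosses and in none of the 3 WT blastocysts. Bak1 (chr17:27019810-27029009, minus strand, ENSMUSG00000057789.13) had 2 to 21 counts in every embryo, or 0.0932 to 0.439 FPKM, and Bok exceeded it 63.1-fold to 803-fold. Bak1 shares 357 exon bases with Ggnbp1 on the opposite strand (18 to 125 counts), and without a strand setting the reads of the 2 genes there cannot be told apart.

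The initiator caspase of the apoptosome, Casp9 (chr4:141793612-141815976, plus strand, ENSMUSG00000028914.13), measured 2.35, 3.39 and 0.472 CPM in Gabpb1-KO-labelled morulae and 6.63 and 7.15 CPM in their non-KO sibling morulae. In the Alyref cross it measured 7.39 and 2.60 CPM in KO-labelled and 5.08, 2.36 and 8.56 CPM in non-KO morulae. The blastocysts measured 9.10, 8.41 and 8.93 CPM (Alyref cross), 10.98, 3.38 and 11.6 CPM (Gabpb1 cross) and 6.89, 8.98 and 10.6 CPM (WT). The Gabpb1-KO-labelled group was lowest, where the third embryo rested on 7 counts, and every group overlapped its neighbours in the order of means. Casp9 shares 94 exon bases with each of Cela2a (0 to 91 counts) and Ctrc (1 to 62 counts) on the opposite strand.

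Casp8 (chr1:58795374-58847503, plus strand, ENSMUSG00000026029.14), the initiator caspase of death receptors, was seen in all 9 blastocysts at 2 to 14 counts (0.134 to 0.967 CPM). Of the 10 morulae, 9 had 0 to 2 counts and the third Gabpb1-KO-labelled morula had 37 counts (2.49 CPM). All 3 Alyref cross non-KO morulae had 0 counts, which allows up to 0.16, 0.24 and 0.20 CPM, so the lowest blastocyst values are within what a count of 0 allows in a morula. Casp8 stayed below the filter. In the edgeR fit without a filter, no comparison of Bcl2, Bak1 or Casp8 passed, the smallest adjusted p being 0.0631 for Casp8 between Alyref cross blastocysts and morulae.

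**Figure D2:**
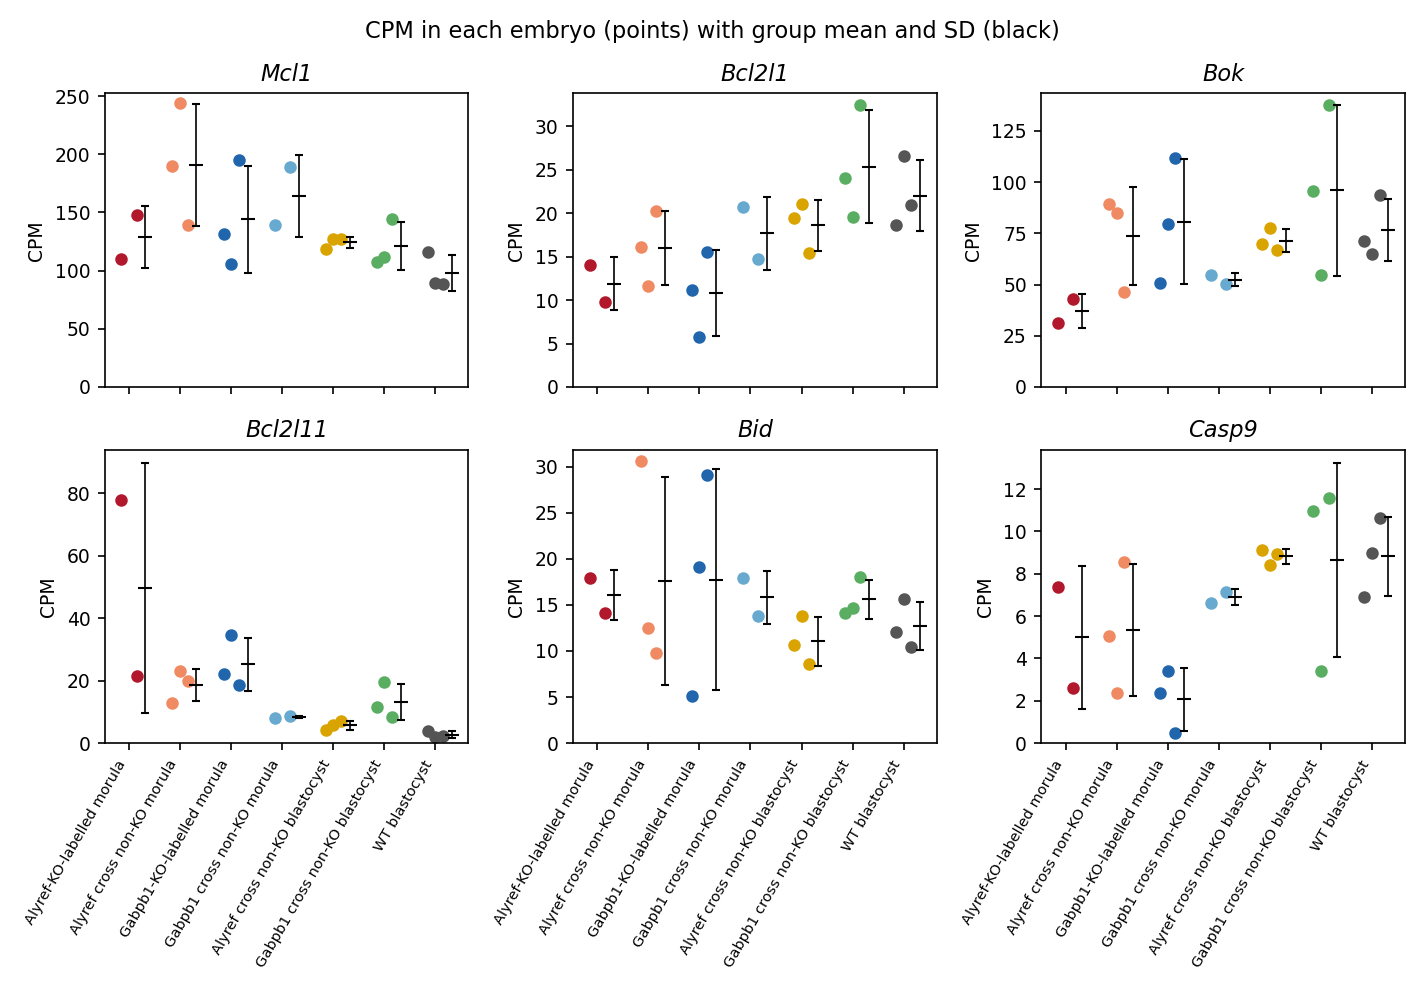
CPM (y axis, from 0) of the 6 tested members in each embryo (points) by group (x axis), with the group mean and SD in black. Bcl2l11 runs from 77.9 CPM in 1 Alyref-KO-labelled morula to 1.89 CPM in a WT blastocyst, and both Alyref-KO-labelled morulae (31.1 and 43.1 CPM) are the lowest for Bok.

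Groups were compared for the 6 tested members with edgeR's quasi-likelihood F test on all 18410 genes that passed the filter, with Benjamini-Hochberg adjustment over those genes. A gene is called when its adjusted p is under 0.05, and log2 fold changes are given with their standard error (SE). Several comparisons share embryos: each KO comparison and the stage comparison of that cross share the non-KO morulae, and both comparisons with WT share the WT blastocysts. The comparison of the crosses' morulae and the difference of the KO effects use the same non-KO morulae again. Each comparison with WT shares the non-KO blastocysts with the stage comparison of its cross. Values from such comparisons are therefore not separate observations.

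The first question was whether the members differed between Alyref-KO-labelled and non-KO sibling morulae. The values lay higher for Bcl2l11 and lower for Bok, and neither passed the test. Bcl2l11 had a log2 ratio of 1.45 (SE 0.49, adjusted p = 0.227; 49.6 ± 39.9 CPM, SD, n = 2, against 18.6 ± 5.14, n = 3). It was 0.23 (adjusted p = 0.934) without the first KO-labelled embryo and 2.08 (adjusted p = 0.262) without the second, so the value depends on which of the 2 is kept. Bok had a log2 ratio of -0.97 (SE 0.39, adjusted p = 0.320; 37.1 ± 8.48 CPM, n = 2, against 73.6 ± 23.8, n = 3), and its groups did not overlap. The other 4 members lay between -0.55 (Mcl1) and -0.07 (Casp9). None of the 6 was called by edgeR, DESeq2 or limma-voom, 2 of 6 had an unadjusted p under 0.05, and 1 of 6 did not overlap. Of all genes tested edgeR called 0.228% (0.0923% higher, 0.136% lower), 12.1% had an unadjusted p under 0.05 and 25% did not overlap. The median over the members was -0.26, against -0.04 over all genes. Summed CPM of 7 maternal oocyte transcripts was 13.1 and 18.6 in the KO-labelled and 44.5 to 66.4 in the non-KO morulae. Only 2 of the 7 passed the filter, and neither was called. Ooep, with means of 9.63 and 46.5 CPM, made up most of the sum, and Zp3 had 2.73 and 4.25 CPM. In Alyref cross blastocysts Ooep was higher (122 CPM) and Zp3 lower (0.401 CPM) than in these non-KO morulae. The part of this sum in the members' values was not tested.

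The same question in the Gabpb1 cross gave higher values for Bcl2l11 and lower values for Casp9, both without overlap and neither called. Bcl2l11 had a log2 ratio of 1.66 (SE 0.53, adjusted p = 0.117; 25.2 ± 8.53 CPM, SD, n = 3, against 8.41 ± 0.377, n = 2). DESeq2 called it (1.64, adjusted p = 0.0305), and scaling to the spike-ins lowered it to 1.07 (adjusted p = 0.684). Casp9 had a log2 ratio of -1.67 (SE 0.67, adjusted p = 0.200; 2.07 ± 1.48 CPM, n = 3, against 6.89 ± 0.371, n = 2), and lay between -2.55 and -1.20 under the alternatives without a call. The other 4 members lay between -0.62 (Bcl2l1) and 0.71 (Bok). None of 6 was called by edgeR or limma-voom and 1 by DESeq2. Of all genes tested edgeR called 303, or 1.65% (0.348% higher, 1.3% lower), and DESeq2 called 1265. An unadjusted p under 0.05 was reached by 2 of 6 members, against 18.9% of all genes, and 2 of 6 did not overlap, against 31.7%. The members' median was 0.07, against 0.06 over all genes. Trophectoderm markers summed to 372 to 2419 CPM in the KO-labelled and 2600 and 4171 CPM in the non-KO morulae (none of 9 called). Of the 9 log2 ratios, 8 were below 0 and 1 above. Most of the sums was Krt8 (means of 417 against 1274 CPM) and Krt18 (567 against 1716 CPM). The part of the trophectoderm markers in the result, and that of the blood markers in 3 of these 5 embryos, was not tested. In whole embryos, fewer cells of a type and less RNA per cell cannot be told apart.

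The effects of the 2 genotypes were compared directly, by subtracting the Alyref cross value from the Gabpb1 cross value. Bok gave the only member value with an unadjusted p under 0.05, a difference of 1.67 (SE 0.55, adjusted p = 0.151), from -0.97 in the Alyref cross and 0.71 in the Gabpb1 cross. limma-voom with embryo weights put it past the threshold (1.93, adjusted p = 0.0483), and spike-in scaling lowered it to 0.97 (adjusted p = 0.995). For Bcl2l11 the difference was 0.21 (SE 0.71, adjusted p = 0.927), and the other 4 members lay between -1.60 (Casp9) and 0.44 (Mcl1). None of 6 was called by edgeR or DESeq2 and 1 by limma-voom. Of all genes edgeR called 167, or 0.907% (0.359% higher, 0.549% lower), and 16.9% had an unadjusted p under 0.05. DESeq2 called 894 genes, and limma-voom, which made the Bok call, a number between these 2.

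**Figure D3:**
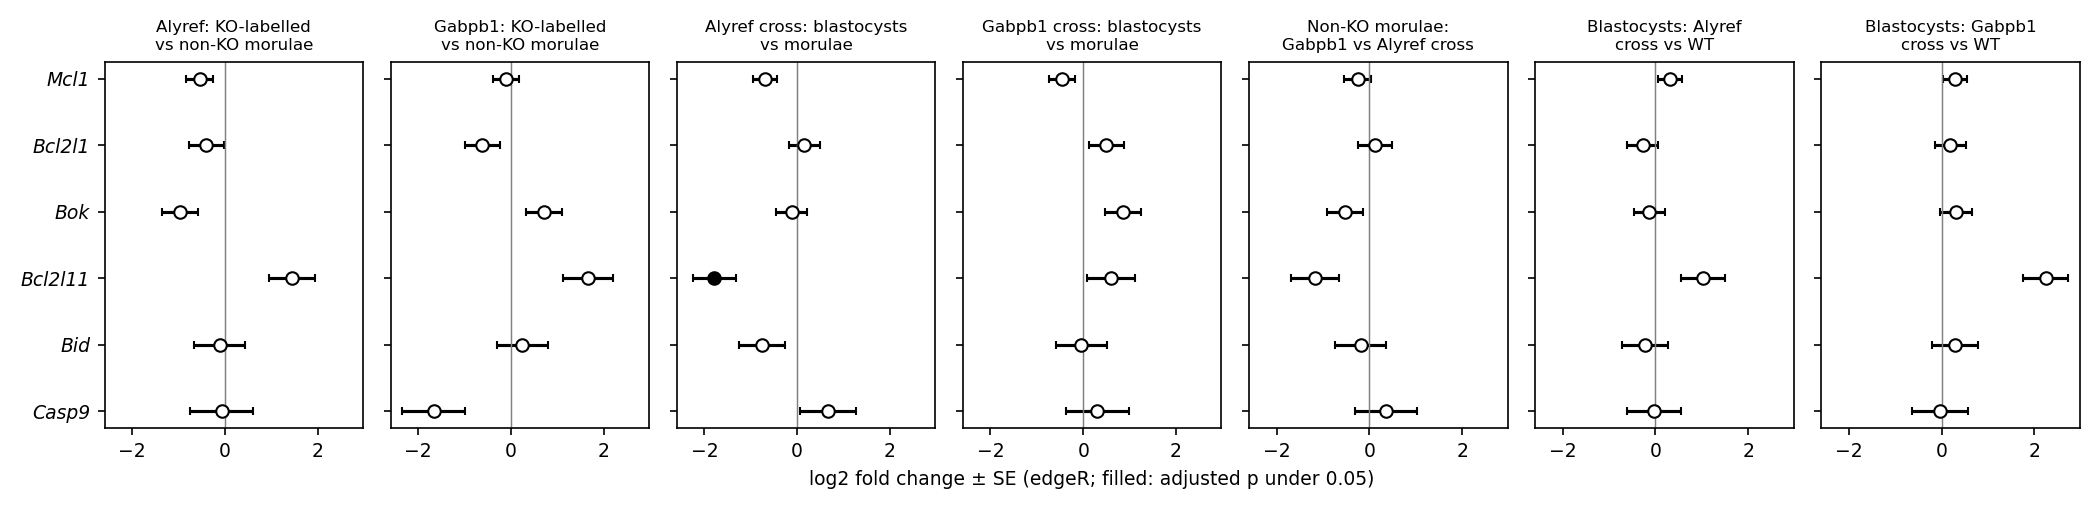
Log2 fold change ± SE (x axis) of the 6 tested members in the 7 comparisons between 2 groups; filled points have an adjusted p under 0.05. The single filled point is Bcl2l11 at -1.78 between Alyref cross blastocysts and morulae.

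Blastocysts and non-KO morulae of 1 cross had the same age, and their comparison asks how the members differ with the stage reached. They were different embryos, so stage reached and pace of development cannot be told apart. In the Alyref cross Bcl2l11 fell by 1.78 on the log2 scale (SE 0.46, adjusted p = 0.0247), from 18.6 ± 5.14 CPM (SD, n = 3) in morulae to 5.69 ± 1.37 CPM (n = 3) in blastocysts, with no overlap between the groups. Mcl1 had a log2 ratio of -0.70 (SE 0.26, adjusted p = 0.0805; 191 ± 52.4 CPM in morulae, 124 ± 4.89 in blastocysts), also without overlap. The other 4 members lay between -0.75 (Bid) and 0.66 (Casp9). With 1 of 6 called, all lower, the background is 13% of genes called (5.62% higher, 7.43% lower). For 2 of 6 with an unadjusted p under 0.05 it is 31.1%, and for 2 of 6 without overlap 38.5%. The members' median was -0.41, against -0.04 over all genes.

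The Bcl2l11 call in the Alyref cross held under DESeq2 (adjusted p = 0.0023) and limma-voom (0.0095) and was lost with the compared groups alone (-1.74, 0.0536) and with spike-in scaling (-1.98, 0.131). It was also lost without the second morula (adjusted p = 0.102) and without any 1 of the blastocysts (0.0987, 0.0858 and 0.0508 in replicate order), while the log2 fold change stayed between -1.96 and -1.55. Mcl1 passed under limma-voom (-0.67, adjusted p = 0.0077) and without the third morula (-0.90, adjusted p = 0.0220), and was at -0.43 without the second morula. Over all genes limma-voom called 7262 in this comparison. Spike-in scaling shifted the median over all genes from -0.04 to -0.34 in this comparison, and turned the split of all calls from 1035 higher and 1367 lower to 31 higher and 321 lower. Trophectoderm markers differed with the stage: 3 of 9 were called higher (Krt7, Krt8 and Krt18) and 1 lower (Tfap2c). The sum of the 9 was 635 to 1966 CPM in morulae and 4392 to 7048 CPM in blastocysts. The 8 inner cell mass markers included 2 called lower (Nanog and Pou5f1), with sums of 749 to 978 CPM in morulae and 562 to 691 CPM in blastocysts. The part of these cell types in the Bcl2l11 value was not tested.

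In the Gabpb1 cross no gene was called between blastocysts and morulae. Bok was the only member with an unadjusted p under 0.05 (log2 fold change 0.85, SE 0.39, adjusted p = 0.731; 96.0 ± 41.6 CPM, SD, n = 3, in blastocysts against 52.3 ± 3.06, n = 2). Its groups did not overlap, by the narrow margin of 54.51 CPM in the lowest blastocyst to 54.48 CPM in the higher morula. Under spike-in scaling it was -0.08, where the median over all genes was -0.86. Bcl2l11 was at 0.61 (SE 0.51, adjusted p = 0.874) here, and the other 4 members lay between -0.46 (Mcl1) and 0.50 (Bcl2l1). None of 6 was called by edgeR, DESeq2 or limma-voom, against 0% of all genes by edgeR. The share with an unadjusted p under 0.05 was 1 of 6 (6.72% of all genes), and without overlap 1 of 6 (23.2%). The difference of the 2 stage effects for Bcl2l11, a contrast added after the data were seen, was 2.39 (SE 0.70, unadjusted p = 0.00364, adjusted p = 0.216), so the effects of the crosses were not shown to differ.

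Comparing the non-KO morulae of the 2 crosses, Bcl2l11 was the member with an unadjusted p under 0.05, at -1.17 in the Gabpb1 cross relative to the Alyref cross (SE 0.52, adjusted p = 0.201; 8.41 ± 0.377 CPM, SD, n = 2, against 18.6 ± 5.14, n = 3), without overlap. The other 5 lay between -0.53 (Bok) and 0.35 (Casp9). None of 6 was called by edgeR, DESeq2 or limma-voom, against 1.85% of all genes by edgeR (1.18% higher, 0.668% lower). Among all genes 22.4% had an unadjusted p under 0.05 and 35.9% did not overlap. These 2 morula groups also differed in summed trophectoderm markers (635 to 1966 CPM against 2600 and 4171 CPM) and in blood markers (0.856 to 7.09 CPM against 33.3 and 98.2 CPM). Of the 9 trophectoderm markers 7 were above 0 and 2 below, and 1 was called (Krt7, 3.76, SE 0.84, adjusted p = 0.0392). All 8 inner cell mass markers were below 0, and 1 was called (Nanog, -1.38, SE 0.28, adjusted p = 0.0335). The part of these markers was not tested.

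Against WT blastocysts, Bcl2l11 was the member with an unadjusted p under 0.05 in both crosses. In the Gabpb1 cross its log2 fold change was 2.25 (SE 0.48, unadjusted p = 0.000271, adjusted p = 0.578; 13.1 ± 5.78 CPM, SD, n = 3, against 2.71 ± 1.04, n = 3), with no overlap. DESeq2 called it (2.26, adjusted p = 0.0105) among the 39 genes it called in this comparison, and limma-voom did not call it. In the Alyref cross it was 1.03 (SE 0.47, adjusted p = 1; 5.69 ± 1.37 CPM, n = 3), again without overlap. The other 5 members lay between -0.03 (Casp9) and 0.31 (Bok) in the Gabpb1 cross and between -0.27 (Bcl2l1) and 0.31 (Mcl1) in the Alyref cross, where Mcl1 did not overlap either. edgeR called none of the 6 members and 0% of all genes in both comparisons. Without overlap were 1 of 6 members against 12.9% of genes in the Gabpb1 cross, and 2 of 6 against 12.3% in the Alyref cross. Unadjusted p under 0.05 was reached by 6.1% and 2.94% of genes. The 5 primitive endoderm markers summed to 238 to 280 CPM in WT blastocysts and 127 to 218 CPM in those of the crosses, and their part was not tested.

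**Figure D4:**
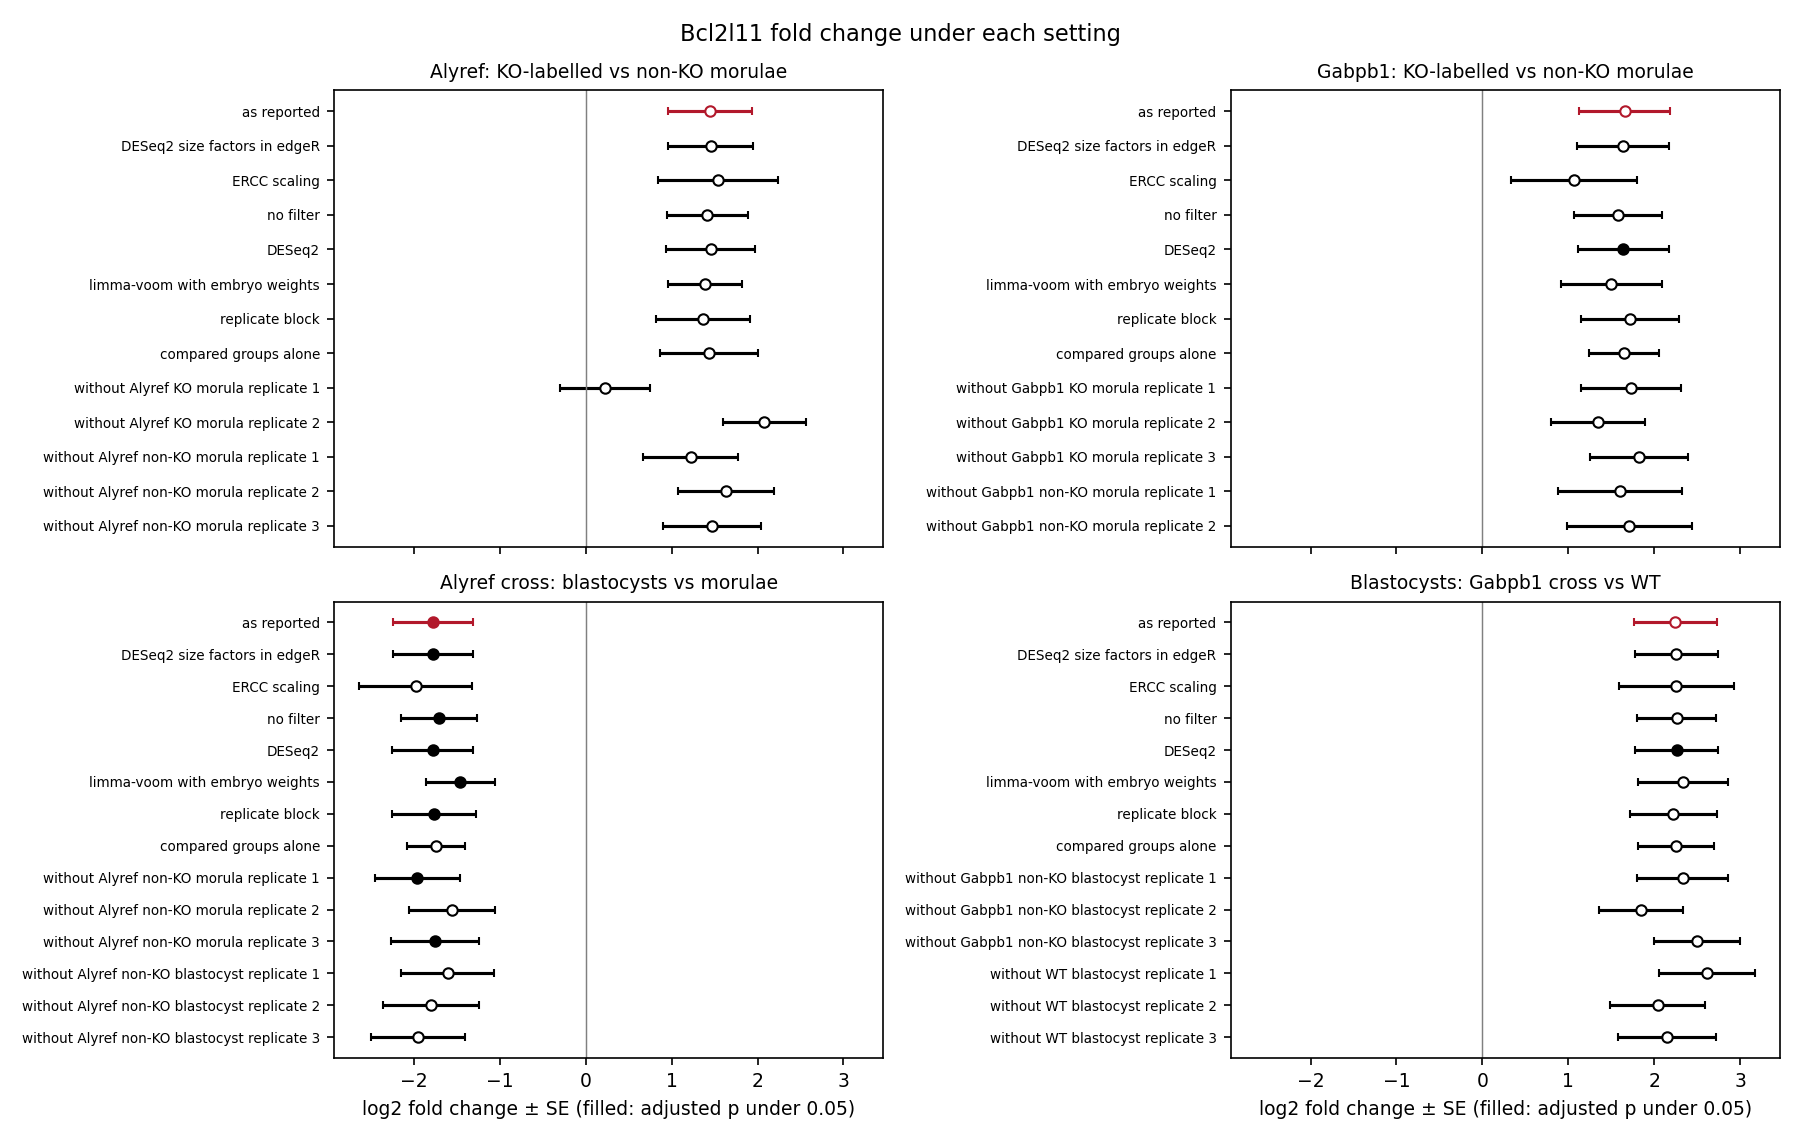
Log2 fold change ± SE of Bcl2l11 (x axis) in 4 comparisons, as reported (red) and under each other setting of the analysis (y axis); filled points have an adjusted p under 0.05. Removing the first Alyref-KO-labelled morula takes the Alyref value from 1.45 to 0.23, and the value between Alyref cross blastocysts and morulae stays between -1.98 and -1.46.

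The rest of the pathway was described with 51 other apoptosis genes, of which 49 had a count in any embryo and 38 passed the filter. The 6 highest per length were the inhibitor of apoptosis Birc5 (median 138 FPKM), cytochrome c Cycs (87.4), the mitochondrial channels Vdac1 (82.7), Vdac2 (82.6) and Vdac3 (60.3), and the effector Bax (65.0). The median of Bax lay above that of its relative Bok (37.9). The median of the caspase Casp6 was 26.9 FPKM. Fas, Tnf, Bcl2a1a, Bcl2a1d, Casp4 and Casp12 had a median of 0, and Bcl2a1b and Casp1 had 0 counts in all 19 embryos.

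Calls among the 38 occurred in 1 comparison, Alyref cross blastocysts against morulae, where 3 were higher and 3 lower against 13% of all genes called. Cycs, the trigger of the apoptosome, was higher in blastocysts by 1.17 on the log2 scale (SE 0.27, adjusted p = 0.0163). It had 174, 91.4 and 186 CPM in morulae and 395, 300 and 368 CPM in blastocysts. Vdac3 was higher by 0.71 (SE 0.20, adjusted p = 0.0294) and Vdac2 by 0.78 (SE 0.22, adjusted p = 0.0306). Under spike-in scaling these 3 were at 0.72, 0.31 and 0.37 (adjusted p = 0.617, 0.857 and 0.846). The family member Bcl2l14 was lower by 1.48 (SE 0.33, adjusted p = 0.0143). It had 162, 287 and 117 CPM in morulae and 72.1, 70.1 and 73.1 CPM in blastocysts. The BH3-only gene Bbc3 was lower by 1.68 (SE 0.48, adjusted p = 0.0327), with 29 to 51 counts per morula and 9 to 29 per blastocyst. Dffb, the caspase-activated DNase, was lower by 1.09 (SE 0.33, adjusted p = 0.0426). Under spike-in scaling these last 3 were at -1.52, -1.78 and -1.20 (adjusted p = 0.100, 0.141 and 0.293), so none of the 6 was called there. All 6 kept their direction in every alternative fitted. Calls were kept in 10 of 14 alternatives for Cycs, 9 of 14 for Bcl2l14, 8 of 14 for Vdac3, 7 of 14 for Vdac2, 5 of 14 for Dffb and 5 of 13 for Bbc3. The list's median was 0.13, against -0.04 over all genes.

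In the other 7 comparisons edgeR called none of the 38. The counts at an unadjusted p under 0.05 stand here beside the share of all genes tested. They were 8 of 38 (21.1%, against 12.1%) in the Alyref KO comparison, 9 (23.7%, against 18.9%) in the Gabpb1 KO comparison and 9 (23.7%, against 16.9%) for the difference of the 2. They were 2 (5.26%, against 6.72%) for the Gabpb1 cross stage, 8 (21.1%, against 22.4%) between the crosses' morulae, 1 (2.63%, against 2.94%) for the Alyref cross against WT and 6 (15.8%, against 6.1%) for the Gabpb1 cross against WT. In that order DESeq2 called 3, 1, 5, 1, 2, 0 and 0 of the 38 and limma-voom 4, 0, 2, 2, 5, 0 and 0. These tools also called more of the 18410 genes tested than edgeR did. limma-voom called 841 in the Alyref KO comparison and 2711 between the crosses' morulae. DESeq2 called 1265 in the Gabpb1 KO comparison, 894 for the difference and 51 for the Gabpb1 cross stage. The remaining counts over all genes are given with the other settings below. In the Alyref KO comparison the smallest p belonged to the BH3-only gene Bad (0.80, SE 0.19, adjusted p = 0.0895; 64.0 ± 6.74 CPM, SD, n = 2, against 37.5 ± 3.78, n = 3). In the Gabpb1 KO comparison the 2 smallest were those of the TNF receptor Tnfrsf1a (-3.47, SE 1.01, adjusted p = 0.0877), at 0.322 ± 0.482 CPM (n = 3) against 4.07 ± 0.262 (n = 2), and the caspase inhibitor Xiap (1.11, SE 0.39, adjusted p = 0.150). For the difference of the 2 effects they were the DNA damage sensor Parp1 (1.09, SE 0.28, adjusted p = 0.0792) and Xiap (1.99, SE 0.55, adjusted p = 0.0965). edgeR called none of these 4 genes as reported. Under the alternatives, Bad was called in 3 of 13 (lowest adjusted p = 0.00059), Tnfrsf1a in 2 of 12 (0.0156), Xiap in 0 of 13 in the Gabpb1 KO comparison, and Parp1 and Xiap in 2 of 18 each for the difference (0.0101 and 0.0156).

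Between Gabpb1 cross blastocysts and morulae the smallest p were those of the death receptor Tnfrsf10b (-2.20, SE 0.46, adjusted p = 0.262) and of Bbc3 (-1.93, SE 0.50, adjusted p = 0.438). The same 2 genes led between the morulae of the crosses, which share the Gabpb1 cross morulae with that comparison, at 1.46 (adjusted p = 0.0889) and 1.51 (adjusted p = 0.105). Against WT blastocysts Bcl2l14 led in both crosses, at 0.95 (adjusted p = 1) in the Alyref cross, followed by the BH3-only gene Pmaip1 (-1.43, adjusted p = 1), and at 1.13 (adjusted p = 0.593) in the Gabpb1 cross.

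**Figure D5:**
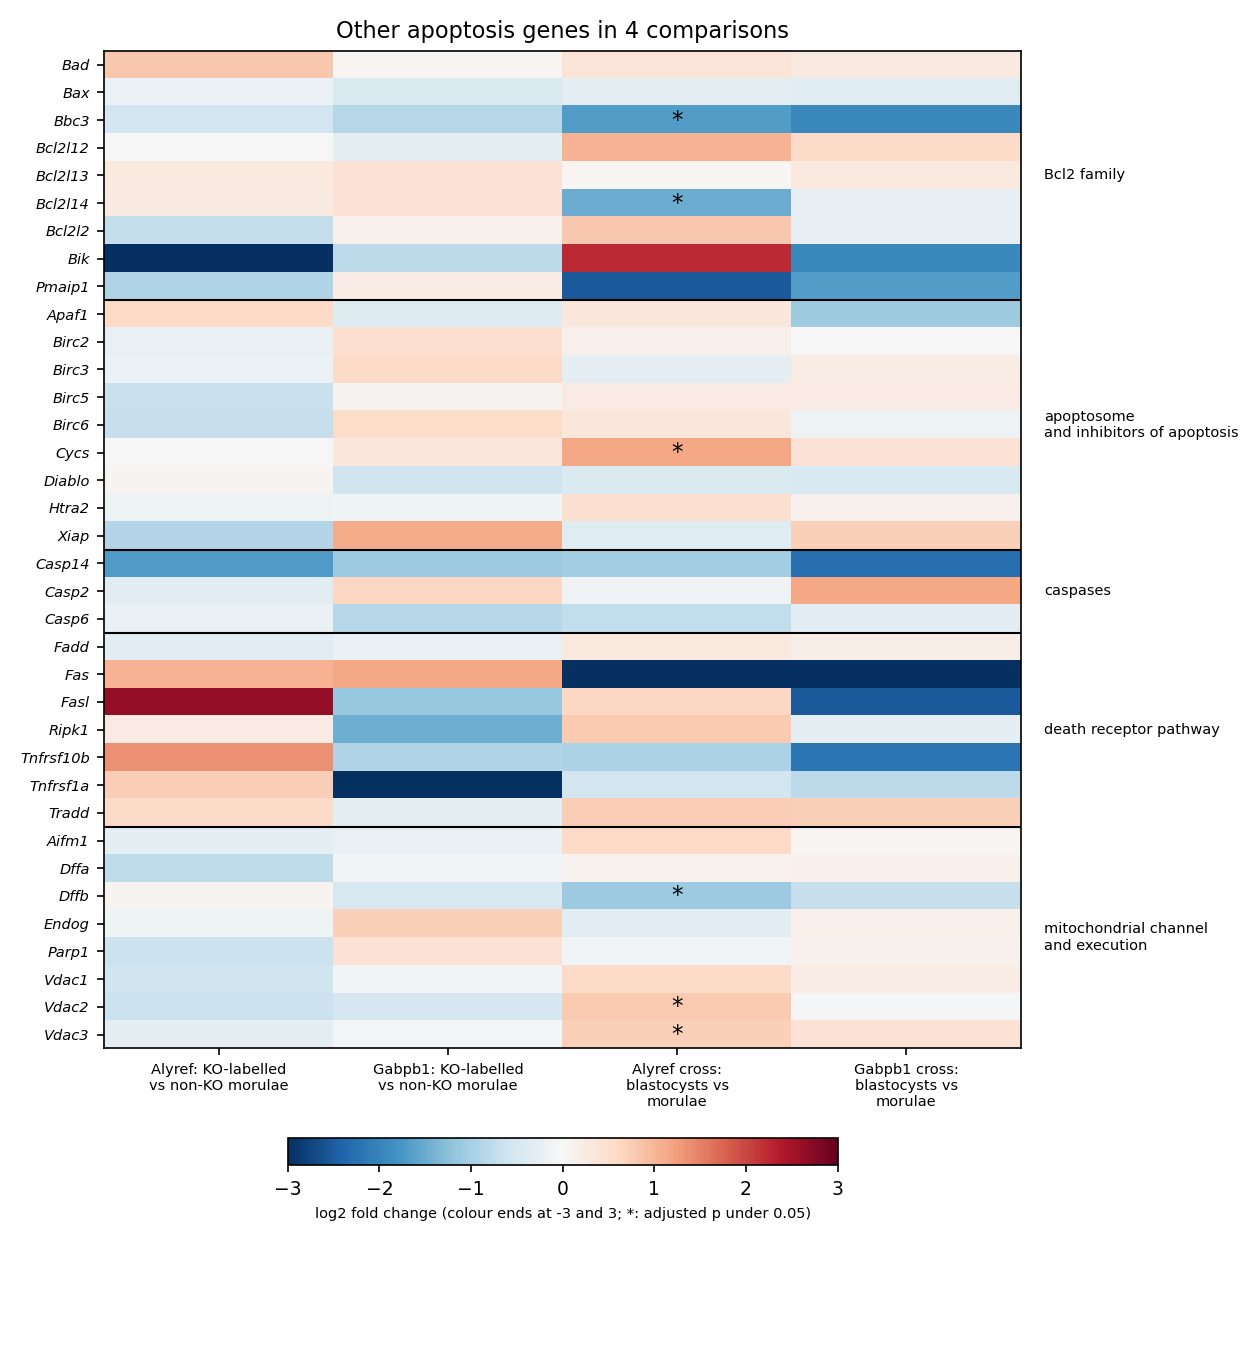
Log2 fold change (colour, ending at -3 and 3) of 36 of the 38 other apoptosis genes that passed the filter (rows, grouped by role) in 4 comparisons (columns); a star marks an adjusted p under 0.05. All 6 stars are in the column of Alyref cross blastocysts against morulae.

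For each tested member the 2 genes with the most similar profile over the 19 embryos were found by the mean absolute difference of standardised log2(CPM + 1), where 0 is an identical profile. They were D11Wsu47e (0.297) and Nfx1 (0.317) for Bcl2l1, Zfp985 (0.373) and Gm1110 (0.376) for Mcl1, and Atp13a3 (0.371) and Rnd1 (0.383) for Bcl2l11. For Casp9 they were Tsta3 (0.316) and Rbbp9 (0.317), for Bok Gm45812 (0.461) and Zfp819 (0.512), and for Bid Gm9923 (0.501) and Nup160 (0.507). The median over all genes tested was 1.05 to 1.14 for the 6 members. No other member was among these 12 genes. The embryos share stage and cross, so the likeness is a description of these libraries only.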

How the data were processed

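RNA of single embryos was amplified from polyA ends after a spike-in of ERCC RNA and sequenced as paired reads without molecular identifiers. The submitters' processing notes name Trimmomatic, Trim Galore, cutadapt, STAR, featureCounts and the mm10 build, without versions. The deposited table holds raw counts per gene with exon lengths, although its name speaks of FPKM. The strand setting of the counting is not given in the sources used here. Groups were taken from the labels, and each embryo is 1 replicate.

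Counts were fitted with edgeR 4.0.16 (R 4.3.3): TMM scaling, 7 group means over all 19 embryos, quasi-likelihood F tests, and Benjamini-Hochberg adjustment over the 18410 genes with an FPKM of at least 1 in at least 2 embryos, of 39262 with any count. The 92 ERCC rows were left out of library sizes. SE is the log2 fold change divided by the root of F. The CPM and FPKM printed used TMM-scaled totals, while the FPKM of the filter used plain library totals. Counting limits cover counting error only. The code was tested on simulated counts. Alternatives used DESeq2 1.42.0, limma 3.58.1 (voom with embryo weights), other scalings and filters, and embryos left out.

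Fold changes are given for members with an unadjusted p under 0.05 in a comparison, or otherwise the member that differed most, and the others by range. Other apoptosis genes are named where called, plus the 2 with the smallest p. Results for some of them are not reported here. Levels of other apoptosis genes, Bcl2l11 in the contrasts of effects and the lowest and highest of the remaining members were named after their values were seen. The members and lists were chosen with earlier results of these data known.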

Additional observations from a re-analysis of the deposited data

How the results depend on the processing

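For the 11 member fold changes printed with their test because of an unadjusted p under 0.05, 145 values were recomputed under alternatives: 133 kept their direction and side of the threshold, 6 lost a call, 5 gained one and 1 turned its sign: Bok between Gabpb1 cross blastocysts and morulae, at -0.0787 with spike-in scaling, which takes the median over all genes there from 0.02 to -0.86. Of the other 37 member fold changes, 23 took both signs across the alternatives, so no direction is read from them, and 1 was called in an alternative (Bid under limma-voom, between Alyref cross blastocysts and morulae). The number of members called changed in 4 comparisons. Between Alyref cross blastocysts and morulae (1 as reported) it was 0 with spike-in scaling, 0 with an FPKM filter of 5, which removes Bcl2l11, 0 with the compared groups alone, 3 under limma-voom (Bcl2l11, Mcl1 and Bid), and 0 to 2 with 1 embryo left out. DESeq2 called 1 member, Bcl2l11, in the Gabpb1 KO comparison and 1, again Bcl2l11, for the Gabpb1 cross against WT, where edgeR called 0. limma-voom called 1 (Bok) for the difference of the KO effects. The causes were not tested.

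Counts of all genes called moved more. The Alyref KO comparison had 42, with 0 (spike-ins), 13 (no filter), 75 (FPKM filter of 5), 490 (DESeq2), 841 (limma-voom), 8 (replicate block), 0 (compared groups alone) and 0 to 128 with 1 embryo left out. For the next 4 comparisons the values are those of spike-in scaling, DESeq2, limma-voom, the compared groups alone and 1 embryo left out, the other settings being within 1.5 times. The Gabpb1 KO comparison had 303, with 26, 1265, 463, 0 and 48 to 966. The difference of the KO effects had 167, with 10, 894, 773, 0 and 16 to 707. The Alyref cross stage comparison had 2402, with 352, 3739, 7262, 24 and 370 to 4560. The morulae of the crosses had 341, with 2, 1694, 2711, 0 and 0 to 2435. Where edgeR called 0 genes, DESeq2 and limma-voom called 51 and 24 (Gabpb1 cross stage, 0 to 6 with 1 embryo left out), 15 and 41 (Alyref cross against WT, 0 to 1) and 39 and 10 (Gabpb1 cross against WT, 0 to 1, and 1 with no filter). Spike-in scaling also moved the split of calls into higher and lower, from 64 and 239 to 0 and 26 in the Gabpb1 KO comparison, from 66 and 101 to 0 and 10 for the difference of effects, and from 218 and 123 to 2 and 0 between the morulae. It moved the median over all genes to -0.40, -0.33 and 0.39 in these 3.

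Same-numbered embryos did not deviate together (correlations of -0.157 to 0.170), so the numbers do not pair them. With the number as a replicate block, Bcl2l11 between Alyref cross blastocysts and morulae was at -1.77 (adjusted p = 0.0362), and the count of members called was as reported in all 8 comparisons. With 1 embryo left of a group of 2, that embryo was assumed to vary like the other groups.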
